A study of Mus musculus with 22 samples.

Results

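The 10 genes described here carry the absorption of sodium, chloride and water in the colon, and they were taken by gene name from a count table of 46078 genes: the anion exchangers Slc26a3 and Slc26a2, the sodium-proton exchangers Slc9a3 and Slc9a2, the epithelial sodium channel (ENaC) subunits Scnn1a, Scnn1b and Scnn1g, the aquaporin Aqp8, and the carbonic anhydrases Car1 and Car4. All 10 were found, each as 1 row, and all 10 passed the filter on low counts in every comparison. RNA was sequenced from the distal colon of mice in 3 groups: 8 C57BL/6 mice aged 14 weeks (4 males, 4 females), 7 Winnie mice aged 14 weeks whose colon was labelled inflamed (3 males, 4 females), and 7 Winnie-Prolapse mice aged 18 weeks whose colon was labelled severely inflamed (4 males, 3 females). Winnie mice carry a missense mutation of Muc2, the secreted mucin of goblet cells, in every cell, and develop colitis without a drug or an infection; the labels name no treatment in any group. The Winnie-Prolapse mice were older than both other groups, so that prolapse and age cannot be told apart, and the labels do not say which mice shared a litter or a cage.

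Surface cells of the colon take up sodium chloride through paired exchangers in the apical membrane, in which a sodium-proton exchanger and a chloride-bicarbonate exchanger work side by side while carbonic anhydrases supply the protons and bicarbonate. In the distal colon, sodium also enters through ENaC, a channel built of an alpha, a beta and a gamma subunit under the control of aldosterone, and water follows the absorbed salt. Loss of Slc26a3 function causes chloride-losing diarrhea, and reduced salt absorption is a known feature of colitis.

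Upstream sequences are shown for 3 members: Slc26a3, the chloride-bicarbonate exchanger whose count fell in Winnie-Prolapse mice, and Scnn1b and Scnn1g, the beta and gamma ENaC subunits, which lie next to each other in the genome and varied together between libraries. Each is the 250 bases before the RefSeq start of the gene (GRCm38.p6), read 5' to 3' on the plus strand: chr12:31437969-31438218 for Slc26a3, within the longer gene span of the annotation given below, chr7:121864788-121865037 for Scnn1b and chr7:121734229-121734478 for Scnn1g. Capitals mark matches to the motif letters searched.
Slc26a3: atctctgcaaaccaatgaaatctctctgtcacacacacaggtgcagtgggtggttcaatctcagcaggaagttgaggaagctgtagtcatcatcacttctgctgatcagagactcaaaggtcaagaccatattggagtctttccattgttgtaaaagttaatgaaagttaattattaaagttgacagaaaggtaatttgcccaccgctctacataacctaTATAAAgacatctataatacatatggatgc
Scnn1b: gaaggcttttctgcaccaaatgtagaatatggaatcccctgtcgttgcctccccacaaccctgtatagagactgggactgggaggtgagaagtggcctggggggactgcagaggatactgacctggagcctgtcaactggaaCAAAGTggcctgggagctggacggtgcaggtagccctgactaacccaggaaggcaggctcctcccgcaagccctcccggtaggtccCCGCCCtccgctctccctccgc
Scnn1g: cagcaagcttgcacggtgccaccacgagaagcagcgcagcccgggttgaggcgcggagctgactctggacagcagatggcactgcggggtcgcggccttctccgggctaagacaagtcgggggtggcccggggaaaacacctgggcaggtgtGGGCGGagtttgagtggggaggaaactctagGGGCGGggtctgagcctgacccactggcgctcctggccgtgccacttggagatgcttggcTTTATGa

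The Slc26a3 window held 38.8% G and C, and its TATA box letters TATAAA lay at bases 221 to 226, starting 30 bases before the gene. Scnn1b and Scnn1g had windows of 60.8% and 65.2% G and C, against a median of 52.4% over the 32851 RefSeq promoter windows of this length. The motifs were searched on both strands and do not overlap one another in these windows: a CDX motif (TTTATG, in 10.8% of all windows), an HNF4 motif (CAAAGT, 12.6%), a GATA motif (AGATAA, 9.99%), a GC box (GGGCGG, 32.7%), a steroid receptor motif (TGTTCT, 16.1%) and the TATA box (TATAAA, 12.4%). Scnn1b held 1 HNF4 match and 1 GC box on the minus strand, where it reads CCGCCC in the line above, and Scnn1g held 1 CDX match and 2 GC boxes. Of the other members, 3 had a window in the RefSeq table: Slc9a3 held 3 GC boxes, and Aqp8 and Car4 held 0 matches. A match is a description of letters only.

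In GRCm38 with the GENCODE M21 annotation, Scnn1g (chr7:121734479-121768475) and Scnn1b (chr7:121865038-121918514) are transcribed in the same direction with 96563 bases between them, and Aqp8 (chr7:123462291-123468004) lies on the same chromosome. Slc26a3 is at chr12:31390871-31473917, Slc26a2 at chr18:61192919-61211612, Slc9a3 at chr13:74121457-74169442 and Slc9a2 at chr1:40680574-40769273. Scnn1a is at chr6:125320659-125344943, Car1 at chr3:14766216-14808368 and Car4 at chr11:84957786-84966044. Processed pseudogenes on the same strand overlap Slc26a3 (Gm9359) and Car1 (Gm16399), and Cog7 and Gm37623 lie opposite Scnn1b and Slc9a2, so reads shared with these neighbours are uncertain.

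The libraries held 24817527 to 36344372 counts, and 3 counts, the limit that a count of 0 allows, corresponded to 0.0825 to 0.121 CPM, the count of a gene scaled by the total count of its library. Markers of the colon epithelium were present in every library, with a summed level over 10 pan-epithelial genes of 11361 to 20571 CPM. Distal Hox genes, which mark the distal end of the gut, summed to 654 to 937 CPM in 7 C57BL/6 libraries and to 103 CPM in C57BL/6 replicate 7, a female library in which Hoxb13 was at 16.4 CPM and Hoxd13 at 0.22 CPM, which goes against its label of distal colon. Winnie-Prolapse replicate 6, also female, held 179624 CPM of 6 milk protein genes, against at most 54.2 CPM in the rest of its group and 5.49 CPM in the other groups. For members whose values rest on either library, values without it, or without both, are also given.

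The mean share of the sequenced RNA taken by the 10 genes was highest in C57BL/6 mice, lower in Winnie mice and lowest in Winnie-Prolapse mice. They made up 1.003% ± 0.149 (SD, n = 8) of all counts in C57BL/6 mice, with a range of 0.724% to 1.2%. In Winnie mice the share was 0.662% ± 0.359 (SD, n = 7), from 0.201% to 1.10%. In Winnie-Prolapse mice it was 0.195% ± 0.174 (SD, n = 7), with a lowest value of 0.0686%, a median of 0.102% and a highest of 0.516%. Every Winnie-Prolapse library therefore lay below every C57BL/6 library, while 4 of 7 Winnie libraries lay within the Winnie-Prolapse range and 3 within the C57BL/6 range. The lowest Winnie-Prolapse value was that of replicate 6, whose total holds the milk protein counts; without those counts its share was 0.0837%, and replicate 4 was the lowest (0.0726%).

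**Figure D1:**
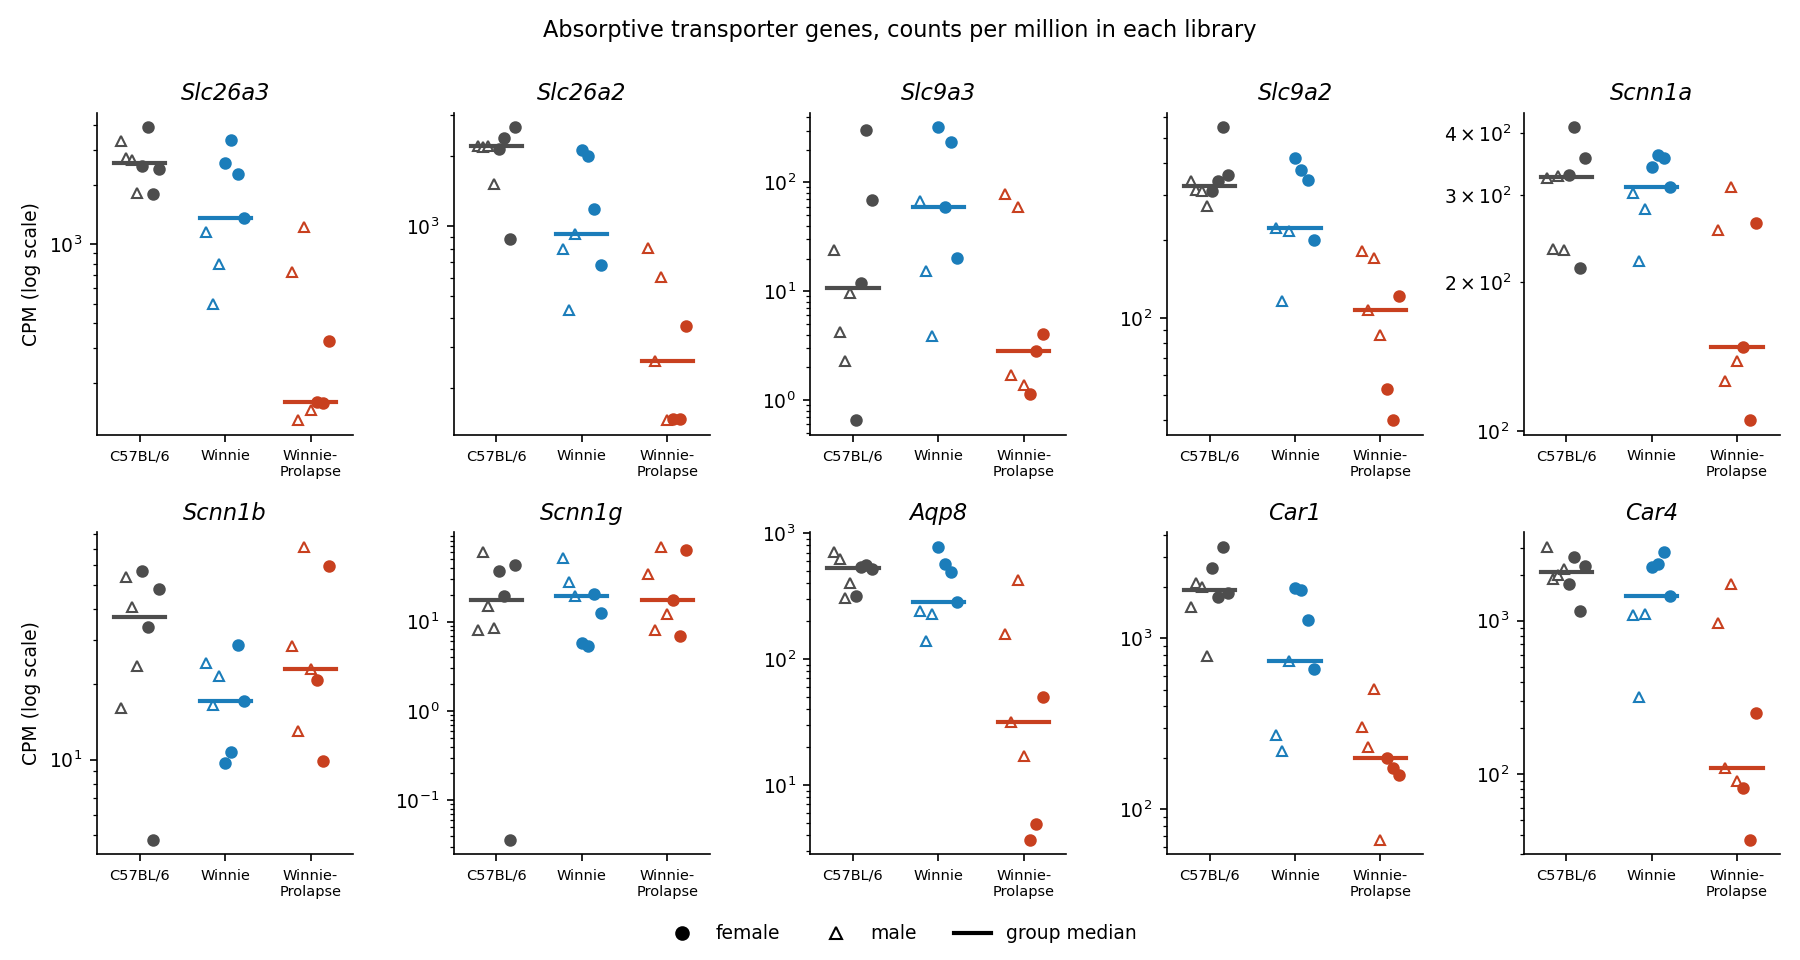
Level of each of the 10 members in every library, in CPM on a log axis, with a circle for each female, a triangle for each male and a bar at the group median. All 7 Winnie-Prolapse points of Slc26a3, Slc26a2, Slc9a2 and Car1 lie below all 8 C57BL/6 points. For Scnn1b and for Scnn1g the Winnie-Prolapse points overlap those of C57BL/6 mice, and 2 of 7 lie above them all.

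Per kilobase of exon, which allows genes to be set side by side, the mean level in C57BL/6 mice was 1598 CPM per kb for Car1 and 1069 CPM per kb for Car4. Slc26a3 followed at 414, Aqp8 at 313, Slc26a2 at 164, Scnn1a at 73.4 and Slc9a2 at 50.05 CPM per kb. The lowest levels were those of Scnn1b (13.2), Slc9a3 (9.70) and Scnn1g (8.01 CPM per kb), and without C57BL/6 replicate 7 the last 2 changed places (3.14 for Slc9a3 and 9.15 CPM per kb for Scnn1g). Neighbours in this order overlapped between libraries, except that every library had more Slc9a2 per kilobase than any had Scnn1b. In Winnie-Prolapse mice Car4 (237) and Car1 (187) had the highest means per kilobase, in the opposite order without Winnie-Prolapse replicate 3 (129.9 for Car4 and 151 for Car1), and Scnn1a (46.6) stood above Slc26a2 (28.7 CPM per kb).

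A pair of limits was used with edgeR's quasi-likelihood test, fitted over all genes: the study's limits, an adjusted p under 0.001 with at least a 1.5-fold difference, and a looser pair with an adjusted p under 0.05. Between Winnie-Prolapse and C57BL/6 mice, 4 of 10 members fell by the study's limits (Slc26a3, Slc26a2, Slc9a2 and Car1), as did 8.47% of all 17397 genes tested, and 0 of 10 rose, against 9.84% of all genes. By the looser limits 6 of 10 fell, with Aqp8 and Car4 added, against 17.7%. The same 4 genes were lower with no overlap of CPM between the groups, against 9.45% of all genes. The median log2 fold change was −1.82 over the 10 members and −0.01 over all genes tested. In bulk tissue, fewer cells of a type and less RNA per cell cannot be told apart.

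No member passed a limit between Winnie and C57BL/6 mice. By the study's limits 0 of 10 members fell, against 0.00578% of the 17289 genes tested, and 0 rose, against 0.0868%. By the looser limits 0 fell, against 8.53%, and 0 were lower without overlap, against 1.17%. At an unadjusted p under 0.05, edgeR gave 1 member, Slc26a2, against 39.9% of all genes. DESeq2 and limma-voom also called 0 members lower, against 2.04% and 0% of their genes by the study's limits and 8.44% and 8.99% by the looser ones, and 0 higher. The median log2 fold change of the members was −0.28, against −0.01 over all genes.

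Between Winnie-Prolapse and Winnie mice, edgeR called 0 of 10 members by the study's limits in either direction, as it did for 0% of the 17041 genes tested, and DESeq2 and limma-voom also gave 0, with 0.735% and 0% of their genes lower. By the looser limits 3 of 10 fell (Slc26a2, Slc9a2 and Car1), against 2.72% of all genes, and 7 had an unadjusted p under 0.05, against 27.8%. These looser calls were not stable: the count was 0 with sex as a covariate (adjusted p = 0.0852, 0.0709 and 0.0999), 0 in males only, as for 0% of genes, and 0 in 8 of the 14 fits that left out 1 library. In females only it was 8 (all but Scnn1b and Scnn1g), against 6.25% of genes, and whether the sexes differed in this comparison was not tested. No member was lower without overlap, a state found for 0.552% of genes. The median log2 fold change was −1.73 over the members and 0.01 over all genes. The 3 comparisons share libraries, so each is given by its own values.

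**Figure D2:**
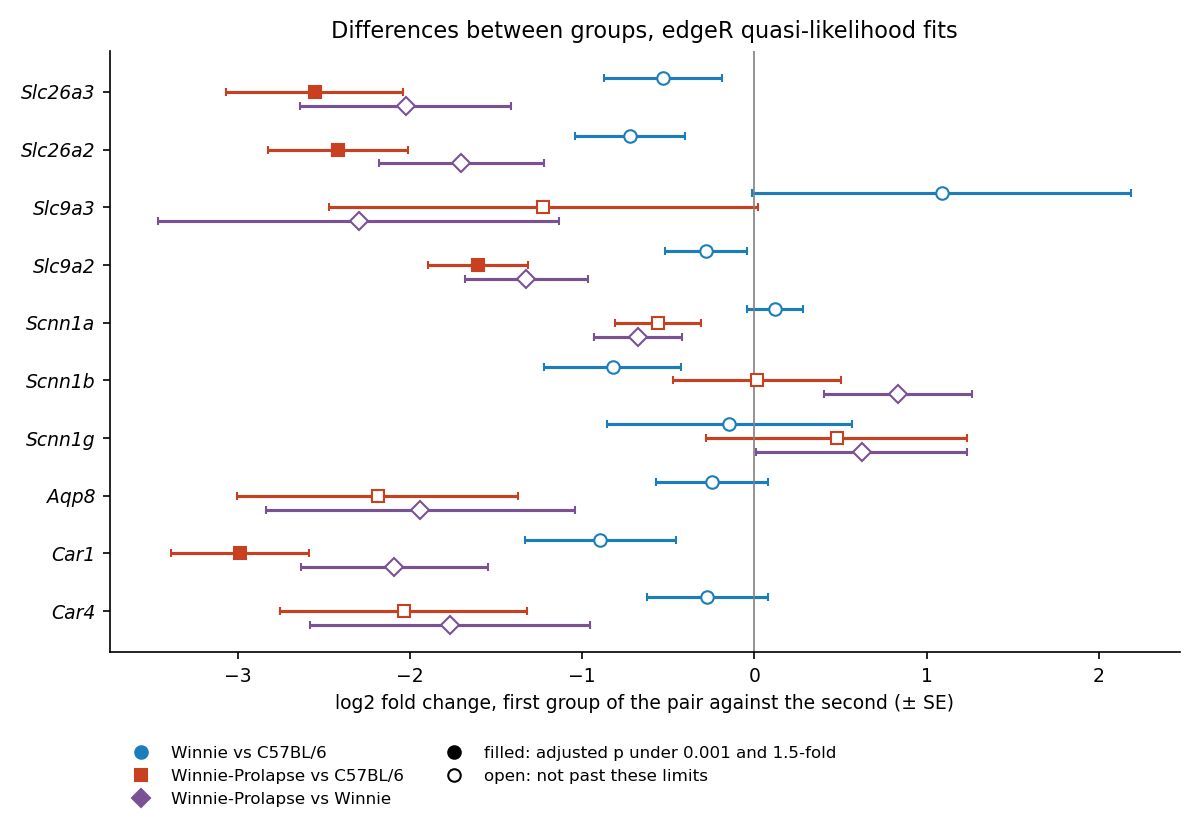
Log2 fold change of each member with its standard error in the 3 comparisons, from edgeR, with filled markers for members past the study's limits. The 4 members past the study's limits, Slc26a3, Slc26a2, Slc9a2 and Car1, lie between −2.98 and −1.61 for Winnie-Prolapse against C57BL/6, and Scnn1b lies at 0.01.

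Slc26a3, the apical exchanger that brings chloride into the colonocyte in return for bicarbonate, had the highest mean of the set's transporters in C57BL/6 mice. In C57BL/6 mice its lowest, median and highest levels were 1794, 2572 and 3893 CPM. Winnie mice gave 502, 1351 and 3375 CPM, and Winnie-Prolapse mice 130, 159 and 1229 CPM. All 7 Winnie-Prolapse libraries lay below all 8 C57BL/6 libraries, and 4 of 7 Winnie libraries did.

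The Slc26a3 level in Winnie-Prolapse mice was 5.87-fold lower than in C57BL/6 mice (log2 fold change −2.55 ± 0.51 SE; edgeR adjusted p = 0.000714). This call sat close to the study's limit: leaving out 1 library took the adjusted p to as much as 0.00206, and the call was kept when C57BL/6 replicate 7, Winnie-Prolapse replicate 1 or Winnie-Prolapse replicate 3 was left out and lost in the other 12 cases. The log2 fold change itself ran from −3.18 to −2.37 when 1 library was left out. Without both C57BL/6 replicate 7 and Winnie-Prolapse replicate 6 the change was −2.46 (adjusted p = 0.00206). Against Winnie mice the Winnie-Prolapse level differed by −2.02 ± 0.61 (adjusted p = 0.0527), or −2.67 to −1.80 when 1 library was left out. It passed the looser limits without Winnie replicate 2 (0.0292) or Winnie-Prolapse replicate 1 (0.0473) or 3 (0.0129). It also passed them with DESeq2, limma-voom, library totals, pan-epithelial scaling, a bias-adjusted quasi-likelihood fit, a single fit of all 3 groups, and in females only. It did not with sex as a covariate, in males only or with other filters on low counts. Winnie mice differed from C57BL/6 mice by −0.53 ± 0.34 (adjusted p = 0.264).

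Slc26a2, a sulfate and chloride exchanger that supplies sulfate to cells, followed Slc26a3. C57BL/6 libraries had a lowest level of 883, a median of 2208 and a highest of 2667 CPM, and Winnie libraries had 437, 925 and 2119 CPM. In Winnie-Prolapse mice the 3 values were 146, 263 and 805 CPM. The highest Winnie-Prolapse library thus lay just under the lowest C57BL/6 library, which was replicate 7, and 3 of 7 Winnie libraries lay below all C57BL/6 libraries.

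Slc26a2 was 5.34-fold lower in Winnie-Prolapse than in C57BL/6 mice (log2 fold change −2.42 ± 0.41 SE; edgeR adjusted p = 0.000172), and the call held when any 1 of the 15 libraries was left out (adjusted p at most 0.000578). Against Winnie mice the change was −1.70 ± 0.48 (adjusted p = 0.0417), past the looser limits, but not in 10 of 14 fits without 1 library (adjusted p up to 0.0893). Winnie mice differed from C57BL/6 mice by −0.72 ± 0.32 (adjusted p = 0.104), which passed the looser limits without C57BL/6 replicate 7 (−0.83, adjusted p = 0.0486), Winnie replicate 4 (−0.95, 0.0404) or Winnie replicate 5 (−0.88, 0.0451). The log2 ratio of Slc26a2 to Slc26a3 within a library was −0.40 ± 0.36 (SD, n = 8), −0.50 ± 0.44 (SD, n = 7) and 0.01 ± 0.60 (SD, n = 7) in the 3 groups, with no pair of groups apart.

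Slc9a2 (NHE2) and Slc9a3 (NHE3) both bring in sodium against protons at the apical membrane, and they differed in how steady they were between libraries. Slc9a2 had a lowest level of 272, a median of 326 and a highest of 549 CPM in C57BL/6 mice. The values were 116, 223 and 415 CPM in Winnie mice and 40.1, 108 and 182 CPM in Winnie-Prolapse mice. All 7 Winnie-Prolapse libraries and 4 of 7 Winnie libraries fell below every C57BL/6 library.

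Slc9a2 fell 3.05-fold in Winnie-Prolapse against C57BL/6 mice (log2 fold change −1.61 ± 0.29 SE; edgeR adjusted p = 0.0003), with an adjusted p of at most 0.000956 when 1 library was left out, while the change of −1.32 ± 0.36 against Winnie mice (adjusted p = 0.0365) missed the looser limits in 10 of 14 fits without 1 library (adjusted p up to 0.0785). C57BL/6 replicate 7 held the highest level; without it and Winnie-Prolapse replicate 6 the change against C57BL/6 was −1.33 (adjusted p = 0.000674). Winnie mice differed from C57BL/6 mice by −0.28 ± 0.24 (adjusted p = 0.400).

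Slc9a3 varied widely between libraries of 1 group. C57BL/6 libraries ran from 0.656 CPM, with a median of 10.8, to 306 CPM in replicate 7, the library low in distal Hox genes; the next highest was at 68.3 CPM. Winnie libraries ran from 3.89 through a median of 60.0 to 321 CPM, and Winnie-Prolapse libraries from 1.14 through 2.82 to 77.6 CPM. Winnie and C57BL/6 libraries overlapped, with 1 Winnie library above all C57BL/6 libraries and 2 C57BL/6 libraries below all Winnie libraries, while 4 of 7 Winnie-Prolapse libraries lay below every Winnie library.

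No comparison passed a limit for Slc9a3. In Winnie against C57BL/6 mice the log2 fold change was 1.09 ± 1.10 SE (edgeR adjusted p = 0.485). It was 2.71 without C57BL/6 replicate 7 (adjusted p = 0.0526) and 0.47 without Winnie replicate 4 (adjusted p = 0.785). In Winnie-Prolapse against Winnie mice the log2 fold change was −2.30 ± 1.16 (adjusted p = 0.214), or −3.07 to −1.67 when 1 library was left out. In Winnie-Prolapse against C57BL/6 mice it was −1.23 ± 1.24 (adjusted p = 0.421), and its sign turned without C57BL/6 replicate 7 (0.44, adjusted p = 0.748). The log2 ratio of Slc9a2 to Slc9a3 was 4.69 ± 2.35 (SD, n = 8), 2.43 ± 1.80 (SD, n = 7) and 3.89 ± 1.85 (SD, n = 7) in C57BL/6, Winnie and Winnie-Prolapse mice; leaving out C57BL/6 replicate 7 moved the Winnie minus C57BL/6 difference from −2.26 to −2.81 and the Winnie-Prolapse minus C57BL/6 difference from −0.80 to −1.35.

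None of the 3 ENaC subunits passed either set of limits in any comparison. Scnn1a, the alpha subunit that the channel needs to reach the membrane, was the most abundant of the 3 per kilobase. Its lowest, median and highest levels were 213, 326 and 411 CPM in C57BL/6 mice and 220, 311 and 362 CPM in Winnie mice. Winnie-Prolapse mice had 105, 147 and 311 CPM, with 4 of 7 libraries below all C57BL/6 and all Winnie libraries and 3 among them.

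Scnn1a differed by −0.56 ± 0.25 SE in log2 between Winnie-Prolapse and C57BL/6 mice (edgeR adjusted p = 0.0703), by −0.68 ± 0.25 against Winnie mice (adjusted p = 0.102) and by 0.12 ± 0.16 between Winnie and C57BL/6 mice (adjusted p = 0.607). The first of these passed the looser limits without Winnie-Prolapse replicate 3 (−0.74, adjusted p = 0.0155) or replicate 7 (−0.68, 0.0430), with library totals in place of TMM scaling (−0.66, 0.0267), with limma-voom (−0.65, 0.0369) and with scaling to pan-epithelial genes (−0.71, 0.00495). The second passed them without Winnie-Prolapse replicate 3 (−0.87, adjusted p = 0.0265).

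Scnn1b, the beta subunit, had a lowest level of 4.78, a median of 37.4 and a highest of 56.98 CPM in C57BL/6 mice, the lowest being replicate 7. Winnie libraries lay at 9.69, 17.2 and 28.7 CPM, and 5 of 8 C57BL/6 libraries were above all of them. Winnie-Prolapse libraries lay at 9.91, 23.0 and 71.0 CPM, with 2 of 7 above every C57BL/6 library. The log2 fold change was −0.82 ± 0.40 SE in Winnie against C57BL/6 mice (edgeR adjusted p = 0.134), which passed the looser limits without C57BL/6 replicate 7 (−0.99, adjusted p = 0.0228). It was 0.01 ± 0.49 in Winnie-Prolapse against C57BL/6 mice (adjusted p = 0.984), or −0.14 without C57BL/6 replicate 7, and 0.83 ± 0.43 against Winnie mice (adjusted p = 0.223), or 0.46 without Winnie-Prolapse replicate 3.

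Scnn1g, the gamma subunit, had 1 count (0.036 CPM) in C57BL/6 replicate 7, which is under the floor of 3 counts, and a median of 17.3 and a highest of 60.4 CPM in that group. Winnie libraries had a lowest of 5.28, a median of 19.2 and a highest of 51.1 CPM. Winnie-Prolapse libraries had 6.97, 17.5 and 68.5 CPM, with 2 of 7 above every C57BL/6 library and the rest among them. No comparison separated the groups, with log2 fold changes of −0.15 ± 0.71, 0.48 ± 0.76 and 0.62 ± 0.61 (edgeR adjusted p = 0.898, 0.614 and 0.539) for Winnie mice against C57BL/6, for Winnie-Prolapse mice against C57BL/6, and for Winnie-Prolapse mice against Winnie. Leaving out 1 library moved them over −0.58 to 0.20, 0.10 to 0.79 and 0.23 to 1.06.

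Ratios of 2 members within a library depend on how libraries are scaled only through the constant of 0.5 added to each CPM, and 6 such pairs were tested in 3 comparisons with two-sided exact permutation tests, 18 in all. The log2 ratio of Scnn1b to Scnn1a was −3.37 ± 1.03 (SD, n = 8), −4.11 ± 0.66 (SD, n = 7) and −2.76 ± 0.51 (SD, n = 7) in C57BL/6, Winnie and Winnie-Prolapse mice. The Winnie libraries ran from −5.07 to −3.61 and the Winnie-Prolapse libraries from −3.34 to −2.12, without overlap. The difference of 1.35 had an exact permutation p of 0.000583, the smallest that 7 against 7 libraries can give, and 0.0105 after Benjamini-Hochberg adjustment over the 18 tests. It stayed between 1.19 and 1.45 when 1 library was left out. This was the only 1 of the 18 tests with an adjusted p under 0.05, and the others had adjusted values of at least 0.255. The pairs were chosen with earlier results of these data known, and the adjustment over the 18 tests does not cover that choice. The Scnn1g to Scnn1b log2 ratio was −1.06 ± 1.06 (SD, n = 8), −0.14 ± 0.75 (SD, n = 7) and −0.28 ± 0.42 (SD, n = 7) in the same order of groups, and its Winnie minus C57BL/6 difference of 0.93 was 1.16 with a constant of 0.1 and 0.61 without C57BL/6 replicate 7. Leaving out that library also moved the Winnie-Prolapse minus C57BL/6 difference of Scnn1b to Scnn1a from 0.61 to 0.32.

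**Figure D3:**
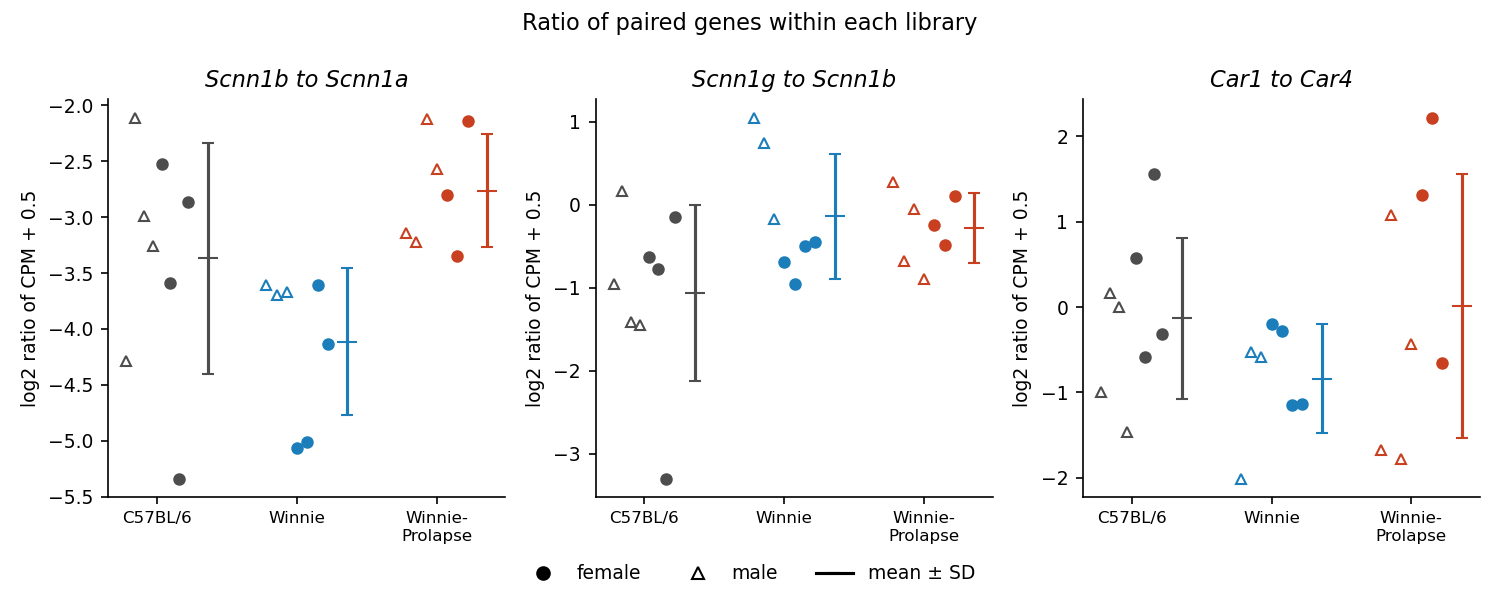
Log2 ratio of CPM plus 0.5 within each library for Scnn1b to Scnn1a, Scnn1g to Scnn1b and Car1 to Car4, by group, with circles for females, triangles for males and the mean ± SD beside them. For Scnn1b to Scnn1a, all 7 Winnie-Prolapse libraries (−3.34 to −2.12) lie above all 7 Winnie libraries (−5.07 to −3.61).

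Aqp8, an aquaporin of the apical membrane of surface colonocytes, had the largest ratio of highest to lowest level in Winnie-Prolapse mice (115-fold). Its lowest, median and highest levels were 307, 527 and 703 CPM in C57BL/6 mice and 140, 284 and 775 CPM in Winnie mice. In Winnie-Prolapse mice they were 3.66, 31.6 and 422 CPM, and replicate 3 at 422 CPM stood apart from the next library at 158 CPM. Of the Winnie libraries, 4 lay below and 1 above all C57BL/6 libraries, and 6 of 7 Winnie-Prolapse libraries lay below them all.

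Aqp8 was 4.55-fold lower in Winnie-Prolapse than in C57BL/6 mice by the looser limits (log2 fold change −2.19 ± 0.82 SE; edgeR adjusted p = 0.0339). The value without Winnie-Prolapse replicate 3 was −3.42 (adjusted p = 0.00103), and the call was lost without C57BL/6 replicate 1 (0.0554) or 2 (0.0502) or Winnie-Prolapse replicate 2 (0.0634), 4 (0.0603) or 7 (0.0610). Without both libraries that stand apart it was −1.92 (adjusted p = 0.0603). Winnie mice differed from C57BL/6 mice by −0.25 ± 0.32 (adjusted p = 0.595) and Winnie-Prolapse from Winnie mice by −1.94 ± 0.90 (adjusted p = 0.174), or by −3.20 without Winnie-Prolapse replicate 3, past the looser limits (adjusted p = 0.0230). The log2 ratio of Aqp8 to Slc26a3 was −2.43 ± 0.50 (SD, n = 8), −2.09 ± 0.31 (SD, n = 7) and −3.10 ± 1.44 (SD, n = 7) in C57BL/6, Winnie and Winnie-Prolapse mice.

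Car1, a carbonic anhydrase of the cytosol, had the smallest adjusted p of the set. C57BL/6 libraries gave a lowest level of 783, a median of 1917 and a highest of 3412 CPM. Winnie libraries gave 219, 736 and 1973 CPM, and Winnie-Prolapse libraries 66.2, 200.4 and 502 CPM. Every Winnie-Prolapse library and 4 of 7 Winnie libraries were below all C57BL/6 libraries.

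Car1 fell 7.92-fold in Winnie-Prolapse against C57BL/6 mice (log2 fold change −2.98 ± 0.40 SE; edgeR adjusted p = 2.57e-05), and the call held without any 1 library (adjusted p at most 0.000115). Against Winnie mice the change was −2.09 ± 0.54 (adjusted p = 0.0318), which missed the looser limits in 8 of 14 fits without 1 library (adjusted p up to 0.0707). In Winnie against C57BL/6 mice the change was −0.89 ± 0.44 (adjusted p = 0.140), which passed the looser limits with sex as a covariate and in males only. Without both C57BL/6 replicate 7 and Winnie-Prolapse replicate 6 the Winnie-Prolapse change was −2.77 (adjusted p = 0.000124).

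Car4, a carbonic anhydrase anchored on the outer face of the apical membrane, had C57BL/6 levels of 1160, 2074 and 3027 CPM (lowest, median, highest). Winnie levels were 316, 1446 and 2814 CPM, and Winnie-Prolapse levels were 37.1, 109 and 1725 CPM. Here 6 of 7 Winnie-Prolapse libraries lay below all C57BL/6 libraries, while replicate 3 lay within their range. Car4 was 4.10-fold lower in Winnie-Prolapse than in C57BL/6 mice by the looser limits (log2 fold change −2.04 ± 0.72 SE; edgeR adjusted p = 0.0255), and −2.97 (adjusted p = 0.0013) without replicate 3. The differences of −0.27 ± 0.35 in Winnie against C57BL/6 mice (adjusted p = 0.588) and −1.77 ± 0.81 in Winnie-Prolapse against Winnie mice (adjusted p = 0.172) did not pass, but without Winnie-Prolapse replicate 3 the latter was −2.72 and passed the looser limits (adjusted p = 0.0314). The log2 ratio of Car1 to Car4 was −0.13 ± 0.94 (SD, n = 8), −0.84 ± 0.64 (SD, n = 7) and 0.01 ± 1.55 (SD, n = 7) in the 3 groups.

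Males and females did not separate over all 22 libraries: by sex, with group in the fit, edgeR called 0 of 10 members, against 0.0788% of 17769 genes, with 0 members at an unadjusted p under 0.05 (4.37% of genes) and 0 by DESeq2 (0.112% of its genes). Within the Winnie group, however, all 3 males lay below all 4 females for 4 members, Slc26a3, Scnn1a, Aqp8 and Car4, against 6.87% of all genes, and this was so for 0 members in C57BL/6 mice (1.37% of genes) and Winnie-Prolapse mice (0.54% of genes). Mean Slc26a3 was 816 CPM in Winnie males and 2392 CPM in Winnie females, against 2635 and 2643 CPM in C57BL/6 mice. Winnie means for males and females were 203.1 and 530.4 CPM for Aqp8, against 508 and 482 CPM in C57BL/6 mice, and 836 and 2213 CPM for Car4, against 2260.1 and 1945 CPM. For Car1 they were 408 and 1456 CPM, but C57BL/6 males (1598 CPM) were also below C57BL/6 females (2389.8 CPM). With males only, Winnie against C57BL/6 mice gave 6 members lower by the looser limits (Slc26a3, Slc26a2, Slc9a2, Aqp8, Car1 and Car4; edgeR), against 10.7% of genes, and with females only 0, as for 0% of genes; the test of that difference is the interaction of sex and group.

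The interaction of sex and group, which tests whether the Winnie difference was of another size in males, gave in edgeR, with adjustment over all genes, −1.62 ± 0.48 SE for Slc26a3 (adjusted p = 0.114), −1.55 ± 0.48 for Aqp8 (adjusted p = 0.122) and −1.71 ± 0.54 for Car4 (adjusted p = 0.131). It called 0 of 10 members at an adjusted p under 0.05, against 0.272% of genes, with 4 members at an unadjusted p under 0.05, against 18.5%, whereas DESeq2 called 3 (Slc26a3, Aqp8 and Car4), against 4.98% of its genes. Without C57BL/6 replicate 7 the values were −1.47, −1.63 and −1.53 (edgeR adjusted p = 0.106, 0.0914 and 0.122). For Winnie-Prolapse against C57BL/6 mice it called 0 of 10 by edgeR, as for 0% of genes, and 0 of 10 by DESeq2, against 0.00674% of its genes, with 3 members at an unadjusted p under 0.05 in edgeR, against 4.34%. The Winnie females carry animal numbers of a single consecutive series, and the males carry numbers of other forms. The labels name no source of the animals, while the paper states that its Winnie and C57BL/6 mice of both sexes came from the same breeding colony. Whether anything else about their origin differed between the sexes in the Winnie group was not tested.

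Single libraries tended to be high or low for many members at once. Winnie-Prolapse replicate 3 was the highest of its group for 7 members and replicate 1 for the other 3 (Slc26a2, Slc9a3 and Slc9a2). Winnie replicate 2, a male, was the lowest of its group for 7 members, and Winnie replicate 4, a female, the highest for 5. C57BL/6 replicate 7 was the highest of its group for 3 members (Slc9a3, Slc9a2 and Car1) and the lowest for 6, and Winnie-Prolapse replicate 6 was the lowest of its group for 5, or for 3 (Slc9a2, Scnn1b and Car4) with the milk protein counts left out of the totals.

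**Figure D4:**
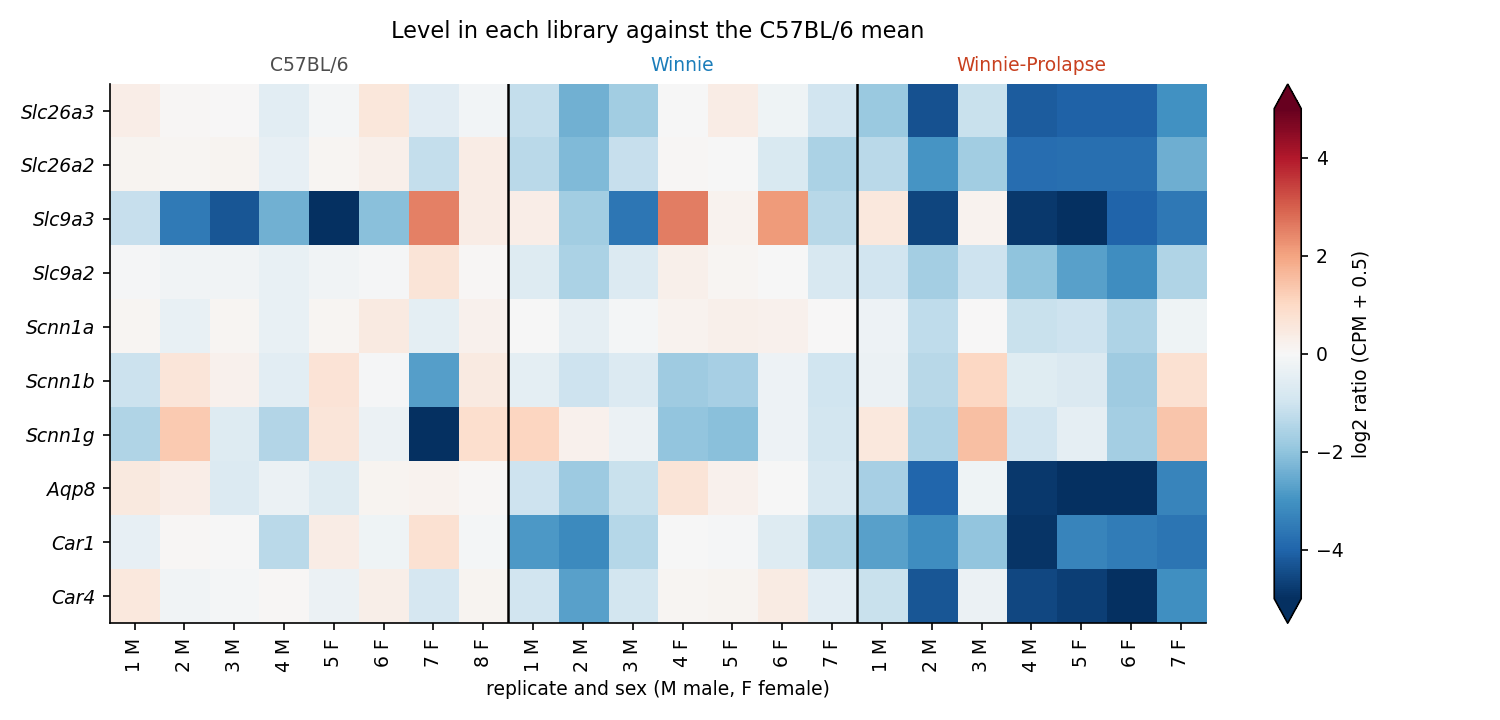
Log2 ratio of each member to its C57BL/6 mean in every one of the 22 libraries, as a color scale that saturates at −5 and 5, with libraries in columns by group and members in rows. Winnie-Prolapse replicates 1 and 3 are paler than most of their group for the members other than Scnn1b and Scnn1g, and C57BL/6 replicate 7 departs from its group in Slc9a3, Scnn1b and Scnn1g.

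As a description over the 22 libraries, which differ in group, log2 CPM of Slc26a3 went with that of Slc26a2 (Pearson's r = 0.96), Car4 (0.96), Aqp8 (0.92), Slc9a2 (0.92), Car1 (0.89) and Scnn1a (0.85). After the group means were taken out, these values were 0.88, 0.92, 0.82, 0.79, 0.71 and 0.87. For Slc26a3 with Slc9a3 the values lay between, at 0.51 over all and 0.60 within groups. Slc26a3 was far less alike to Scnn1b (0.17 over all, 0.39 within groups) and Scnn1g (−0.04 and 0.24). Scnn1b and Scnn1g went with each other (0.85 and 0.92, or 0.84 and 0.89 without both libraries that stand apart). Over the 17769 genes tested, the patterns most like that of Slc26a3 were those of Ugt2b34 (r = 0.972), Selenbp1 (0.970) and Micalcl (0.963). Those most like Aqp8 were Slc25a34 (0.963), Hpd (0.963) and Cbr1 (0.961), and those most like Scnn1b were Scnn1g (0.847), Pdk1 (0.767) and Gm15889 (0.756). Without both libraries that stand apart, the values with Scnn1b were 0.700 for Pdk1 and 0.646 for Gm15889. Those named for Slc26a3 and Aqp8 then lay between 0.952 and 0.969.

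Another 58 genes of the absorptive and secretory machinery were followed in 6 lists. In Winnie-Prolapse against C57BL/6 mice, 54 were tested, of which 4 rose and 7 fell by the study's limits, against 9.84% and 8.47% of all genes; without both libraries that stand apart, 2 of the 11 missed them, Nedd4l with a change of −0.55, under 1.5-fold, and Car2 (−2.08, adjusted p = 0.0012). In Winnie against C57BL/6 mice edgeR called 0 of 53 in either direction by those limits (3 higher and 2 lower by the looser ones, against 15.9% of genes in either direction), and in Winnie-Prolapse against Winnie mice 0 of 54 (3 higher and 6 lower, against 6.99%). The 6 lists below are read against the same shares.

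Among 11 regulators of ENaC, 1 rose and 2 fell in Winnie-Prolapse against C57BL/6 mice. Nr3c2, the mineralocorticoid receptor through which aldosterone acts, went from a mean of 206 to 104.9 CPM (log2 fold change −0.89 ± 0.18 SE; edgeR adjusted p = 0.000825). Nedd4l, a ubiquitin ligase that removes ENaC from the membrane, went from 111 to 67.5 CPM (−0.64 ± 0.10, adjusted p = 7.5e-05). Furin, a protease that cleaves and activates ENaC, went from 88.6 to 210.1 CPM (1.30 ± 0.22, adjusted p = 0.000195).

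Genes that handle protons, bicarbonate and their anions were the list with most calls, 1 higher and 3 lower of 12 tested. Car2, the other abundant carbonic anhydrase of the cytosol, fell from a mean of 1393 to 287 CPM (log2 fold change −2.17 ± 0.43 SE; edgeR adjusted p = 0.000653). Slc4a4, a sodium-bicarbonate cotransporter, fell from 247 to 74.2 CPM (−1.64 ± 0.33, adjusted p = 0.000741), and Slc16a1, which carries lactate and short-chain fatty acids, fell from 437 to 217 CPM (−0.94 ± 0.13, adjusted p = 3.5e-05). Car13, a further carbonic anhydrase, rose from 22.3 to 39.2 CPM (0.88 ± 0.17, adjusted p = 0.000606). By the looser limits the Winnie group differed from C57BL/6 mice for Car2 (−0.81, edgeR adjusted p = 0.0300), Slc4a4 (−1.27, adjusted p = 0.0183) and Car13 (0.77, adjusted p = 0.0101).

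Of 8 genes of the basolateral pump and potassium channels, 1 rose: Fxyd3, a regulator of the sodium-potassium pump, went from 38.9 to 75.3 CPM (log2 fold change 1.02 ± 0.14 SE; edgeR adjusted p = 3.3e-05). Among 10 exchanger scaffolds and kinases tested 0 passed the study's limits; Ezr, the membrane-cytoskeleton linker ezrin and the most abundant, was at 772 and 619 CPM (−0.24, adjusted p = 0.24). Of 9 genes of chloride secretion 1 fell, Kcnq1, a basolateral potassium channel (55.2 to 32.4 CPM, −0.69 ± 0.13, adjusted p = 0.000373). Of 4 other aquaporins that could be tested, Aqp11, an intracellular aquaporin, fell from 15.6 to 6.61 CPM (−1.15 ± 0.16, adjusted p = 3.98e-05), and Aqp3, an aquaglyceroporin of skin and other epithelia, was at 0 to 0.364 CPM in C57BL/6 libraries and 0.182 to 50.4 CPM in Winnie-Prolapse libraries. Aqp3 passed the filter on low counts only through the Winnie-Prolapse group, which fixed its direction, so its call, 1 of the 4 higher, is given as a description.

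**Figure D5:**
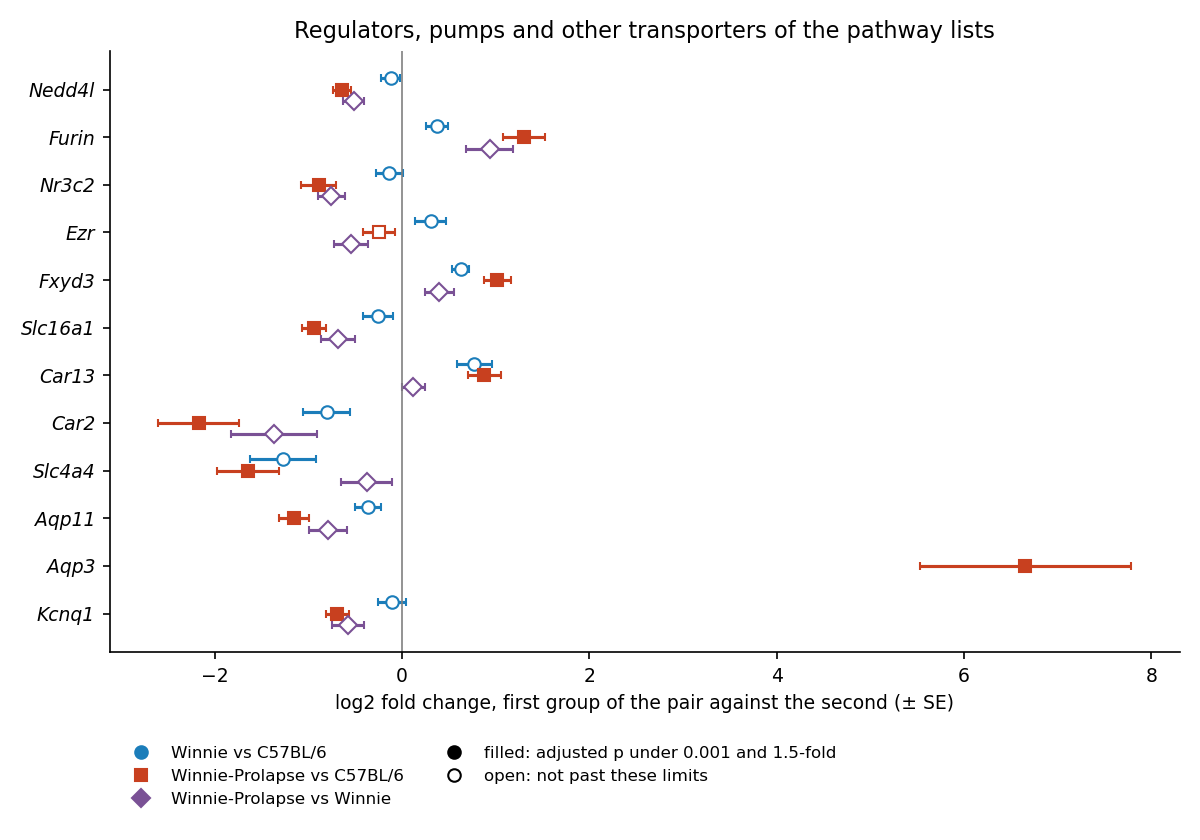
Log2 fold change with its standard error for the named pathway genes in the 3 comparisons, with filled markers past the study's limits and Aqp3 shown only where it was tested. In Winnie-Prolapse against C57BL/6 mice 4 of them, Aqp3 included, were higher and 7 lower, among them Car2 at −2.17 and Slc4a4 at −1.64.

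Markers of cell types moved with the groups, and their part in the results above was not tested. The 10 pan-epithelial genes gave 0 calls in any comparison by either set of limits, and their summed level was 14942 to 16514 CPM in C57BL/6, 15101 to 19961 CPM in Winnie and 11361 to 20571 CPM in Winnie-Prolapse mice. When libraries were scaled to those 10 genes, the same 4 members were lower by the study's limits in Winnie-Prolapse against C57BL/6 mice, against 10.2% of genes under that scaling. That scaling moved the median log2 fold change of all genes by only −0.06 in this comparison, so large changes could hardly lose their calls. The 8 genes of mature colonocytes summed to 15892 to 19503, 15212 to 24381 and 9773 to 25951 CPM in the 3 groups. In Winnie-Prolapse against C57BL/6 mice 1 was lower by the study's limits. By the looser ones 3 were lower and 1 higher (34.4% of all genes in either direction). Without both libraries that stand apart the list was split by the study's limits, against 17.5% of genes called in either direction. Krt20 (1.36, edgeR adjusted p = 0.000341) and Emp1 (2.89, adjusted p = 2.16e-06) were higher, and Mep1a (−2.70, adjusted p = 0.000272) was lower.

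Smooth muscle genes summed to 7528 to 14203 CPM in C57BL/6, 2257 to 8467 CPM in Winnie and 1553 to 3656 CPM in Winnie-Prolapse mice, and 8 of 8 fell by the study's limits in Winnie-Prolapse against C57BL/6 mice, a comparison in which 8.47% of all genes were lower and 9.84% higher. Leukocyte genes summed to 54.8 to 297, 126 to 299 and 229.5 to 1306 CPM. All 8 passed the filter on low counts in Winnie-Prolapse against C57BL/6 mice, but only 7 between Winnie and C57BL/6 mice. Since 1 passed only through the Winnie-Prolapse group, no count of calls is given. Squamous epithelium genes summed to 3.89 to 47.5, 6.37 to 118 and 107 to 3538 CPM, with Ivl at 0 in C57BL/6 mice. Of these 9 genes 6 passed the filter on low counts, against 4 between Winnie and C57BL/6 mice, so that some passed only through the Winnie-Prolapse group and no count of calls is given. The 7 goblet cell genes summed to 10924 to 16374, 6948 to 23853 and 4166 to 13609.5 CPM, with 2 higher and 1 lower. The lower gene, Clca1, missed the study's limits without both libraries that stand apart (−2.94, edgeR adjusted p = 0.00145). The 7 erythroid genes summed to 17.0 to 491, 6.36 to 57.7 and 110.3 to 1518 CPM. All 7 passed the filter, against 6 between Winnie and C57BL/6 mice, so no count of calls is given for them either. The 5 endothelial genes summed to 40.4 to 61.0, 26.7 to 103 and 54.8 to 151 CPM with 1 higher, Cdh5, which also missed those limits without both libraries (1.41, edgeR adjusted p = 0.00126). The 4 distal Hox genes gave 0 calls.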

How the data were processed

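The deposited table holds raw counts per gene for 22 libraries, which the authors made from stranded poly(A) RNA-seq reads; the submitters' processing notes list GRCm38, STAR, featureCounts and limma, and the strand setting of the counting is not given in the sources used here. Counts were scaled to CPM by library totals for display. Only the groups of a comparison entered its fit in edgeR 4.0.16 (filterByExpr, TMM, quasi-likelihood F test, Benjamini-Hochberg over all genes tested; R 4.3.3), checked on simulated data. Calls used an adjusted p under 0.001, or 0.05, and at least 1.5-fold. The sex by group interaction used an adjusted p under 0.05. Pair ratios used CPM plus 0.5, and exact permutation tests were run with SciPy 1.17.1. Alternatives were DESeq2 1.42.0, limma-voom (limma 3.58.1), library totals, other filters, a sex covariate, pan-epithelial scaling, each sex alone and each library left out. Replicates were numbered in accession order. Replicate libraries differed by more than counting noise (lowest chi-square per degree of freedom 28.8). The labels name no batch, and p-values measure the spread between these mice. The members, pairs and lists were chosen with earlier results of these data known. All 130 list genes were found in the table. From each pathway list up to 4 genes past the study's limits by smallest adjusted p were named, or else the most abundant, and 3 genes of like pattern for each of Slc26a3, Scnn1b and Aqp8. RefSeq promoter windows (GRCm38.p6) matched 6 of 10 members. The 3-count floor covers counting error only.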

Additional observations from a re-analysis of the deposited data

Results flagged for a closer look

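Of 30 sets of values (10 members in 3 groups), 3 had a library far from the rest of its group by Dixon's test on CPM. The test's rate of about 1 in 20 by chance is for normally distributed values. CPM was skewed in C57BL/6 Slc9a3, at 0.656 to 306 CPM with a median of 10.8. That rate is therefore no guide here, and the 3 are given as a description. On this scale Scnn1g in C57BL/6 replicate 7, at 0.0362 CPM with the nearest library at 8.13 CPM, was not flagged. Values of log2 CPM were not tested in this way. Slc9a3 was at 306 CPM in C57BL/6 replicate 7, with the nearest library at 68.3 CPM. Slc9a2 was at 549 CPM in the same library, with the nearest at 359.7 CPM, and this is the library whose distal Hox genes summed to 103 CPM. Aqp8 was at 422 CPM in Winnie-Prolapse replicate 3, with the nearest at 158 CPM, and this library was the highest of its group for 7 of the 10 members.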

How the results depend on the processing

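Of 778 alternative values for the 30 member fold changes, 735 kept their direction and side of the study's limits, 20 lost a call by those limits and 23 turned direction; by the looser limits 43 lost a call and 36 gained 1; of 282 for the pair ratios, 276 were unchanged in this sense and 6 turned. By the study's limits, the calls in Winnie and in Winnie-Prolapse against Winnie mice stayed at 0 members in every alternative, while the genes called in either direction went from 0.0925% to 5.5% with DESeq2 and 3.89% without Winnie replicate 5 in the first, and from 0% to 2.93% with DESeq2 in the second. In Winnie-Prolapse against C57BL/6 mice they were 4 of 10, 3 to 4 when 1 library was left out (5.98% to 9.46% of genes lower), 0 in males only (0.339%) and 1 (Car1) in females only (0.177%), with fewer samples in both. By the looser limits, that comparison gave 6, 5 to 7 when 1 library was left out (16.2% to 18.9%) and 3 in males only (11.2%). Winnie against C57BL/6 mice gave 0 by the looser limits, 1 (Car1) with sex as a covariate (9.13% of all genes lower), 2 (Slc26a2 and Scnn1b) with pan-epithelial scaling (15.2%), 6 in males only (10.7%) and 0 to 2 when 1 library was left out (5.43% to 11.9%). Winnie-Prolapse against Winnie mice gave 3, then 5 with limma-voom (2.15%), 0 with sex as a covariate (1.51%), 0 in males only (0%), 8 in females only (6.25%) and 0 to 7 when 1 library was left out: 0 without Winnie replicate 4, 5 or 6 or Winnie-Prolapse replicate 2, 4, 5, 6 or 7, 1 without Winnie replicate 3 or 7, and 7 without Winnie-Prolapse replicate 3 (4.9%). The interaction of sex and group in Winnie mice went from 0 to 3 with DESeq2 and stayed at 0 without C57BL/6 replicate 7. Directions turned, for values that passed no limit, as follows. In Winnie against C57BL/6 mice Scnn1a was −0.12 with pan-epithelial scaling and −0.041 in males, Scnn1g was 0.71 with limma-voom, 0.58 in males and −0.58 to 0.20 when 1 library was left out, and in females only Aqp8 was 0.24 and Car4 was 0.30. In Winnie-Prolapse against C57BL/6 mice Slc9a3 was 1.94 in males, 0.64 without both libraries that stand apart and −1.97 to 0.44 when 1 library was left out. Scnn1b there was −0.11 with library totals, −0.046 with limma-voom, −0.22 with pan-epithelial scaling, −0.13 in females and −0.34 to 0.18 when 1 library was left out. In Winnie-Prolapse against Winnie mice Slc9a3 was 0.33 in males. Among pair ratios, Car1 to Car4 in Winnie-Prolapse against C57BL/6 mice ran from −0.23 to 0.44 and Scnn1g to Scnn1b in Winnie-Prolapse against Winnie mice from −0.28 to 0.056 when 1 library was left out. The cause was not tested. Pan-epithelial scaling moved the median of all genes by −0.23 in Winnie against C57BL/6 mice. The shift was −0.06 in Winnie-Prolapse against C57BL/6 mice and 0.16 in Winnie-Prolapse against Winnie mice. The alternatives that left out both libraries that stand apart, or either of them from the interaction of sex and group, the correlations or the levels per kilobase, or the milk protein counts from library totals, were chosen after seeing the data. At counts of 1 to 17, as for Scnn1g and Slc9a3 in single C57BL/6 libraries, depth limits the values. No paired analysis was possible because the labels give the mice no replicate numbers shared between groups.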
